A study of Mus musculus with 11 samples.

Results

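The VEGF and angiopoietin families are secreted factors that direct the growth, sprouting and stability of blood and lymphatic vessels. Described here are 10 genes of these families, picked by symbol and read in every library: Vegfa, Vegfb, Vegfc, Pgf, Angpt1, Angpt2, Angptl1, Angptl2, Angptl4 and the receptor gene Tek. All 10 were among the 47643 gene symbols measured, and all 10 passed the filter on low values that left 11979 genes for testing, an RPKM of at least 1 in 2 or more libraries. Angpt2 passed it through wound libraries only, since it was under 1 in all 6 NS libraries, so its tests are conditional on the group where it was high. The libraries are poly-A RNA-seq of mouse skin fibroblasts, sorted as live cells that carried CD140a, the product of Pdgfra, and were negative for CD45, CD11b, F4/80 and, per the labels, CD3, which mark leukocytes. Cells came from unwounded back skin (normal skin, NS) or from full-thickness excisional wounds on day 5 after injury (5dw). The design asks how fibroblasts respond to wounding, and how an excess of activin A changes that response.

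WT NS (3 libraries) and WT 5dw (3 libraries) came from wild-type mice, and Act NS (3 libraries) and Act 5dw (2 libraries) from their littermates with the K14-Act transgene. The keratin 14 promoter drives the activin gene of that transgene in keratinocytes, so the sorted fibroblasts of Act mice were exposed to activin made by other cells. Both genotypes were 9 to 12 weeks old and of a mixed strain, 50% CD-1 and 50% C57Bl/6, and they received no treatment apart from the wounds. Each library held RNA pooled from 3 mice, so that differences between single animals cannot be seen. RNA input was 100 ng for NS and 200 ng for 5dw libraries, and this step cannot be told apart from wounding. Act 5dw consists of replicates 1 and 3, because the authors removed replicate 2 after quality control.

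VEGF-A is the main mitogen of vascular endothelium and acts through the receptors encoded by Kdr and Flt1. VEGF-B and placental growth factor, the product of Pgf, bind the Flt1 product and not that of Kdr, whereas VEGF-C drives lymphatic vessels through the Flt4 product. Angiopoietin-1 activates TIE2, the receptor encoded by Tek on endothelial cells, and steadies vessels. Angiopoietin-2 competes with it in many settings and loosens vessels for sprouting. The angiopoietin-like proteins share the fold of the angiopoietins but do not bind TIE2. ANGPTL4 inhibits lipoprotein lipase and is known as a target of PPAR and hypoxia signalling.

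Values are RPKM, reads scaled by gene length and by library depth, so levels of different genes can be set side by side. Fold changes are differences of log2(RPKM + 0.5), written log2FC, with a standard error (SE) from limma. The 0.5 pulls the fold change of weakly expressed genes towards 0. A gene is called where limma's p, adjusted over all 11979 genes by the Benjamini-Hochberg method, is under 0.05. Mapped reads per library, recovered from the RPKM values, ranged from 18649321 to 39702138. Depth followed group, since WT 5dw libraries held 38740404 to 39702138 and all others 18649321 to 29718956. In comparisons with WT 5dw, depth therefore cannot be told apart from the group. The fewest reads behind a value were 20 for Angpt2, and every other member had at least 120 in each library.

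The libraries looked like fibroblasts: the 8 fibroblast markers summed to 10502 to 25412 RPKM, and Pdgfra had group means of 31.8 to 56.1. Markers of other cells moved with wounding. The 9 keratinocyte markers summed to 903 to 3439 RPKM in NS and 101 to 877 in 5dw, where WT 5dw replicate 3 was the highest. The 8 immune markers found in the table summed to 6.36 to 38.2 in NS and 60.6 to 113 in 5dw. Most of the 5dw sum was Cd3e, and without it, a choice made after its level was seen, the other 7 summed to 3.37 to 5.42 in NS and 5.10 to 8.32 in 5dw, with overlap. Ptprc, which encodes CD45, had group means of 0.0107 to 0.0339, so whether Cd3e marks T cells here is not known. Schwann cell markers summed to 4.80 to 10.1 in NS and 0.705 to 0.969 in 5dw, the 4 lymphatic endothelial markers to 1.06 to 8.98 and 0.411 to 0.839, and the 4 skeletal muscle markers to 2.59 to 5.61 and 1.52 to 2.19, each without overlap. The part of these cells in the results on wounding was not tested. WT NS replicate 1 and Act NS replicate 1 lay apart from the other 4 NS libraries on the second principal component, at 22.4 and 35.7 against -18.0 to -7.42, and counts without both are given beside the main ones.

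In unwounded WT skin the most abundant members were Vegfa, at 46.2 ± 5.70 RPKM (SD, n = 3), and Angptl2, at 44.1 ± 14.8. Angptl1 (35.4 ± 7.77), Angptl4 (34.7 ± 9.19) and Tek (24.4 ± 4.29) followed, and each neighbour in this order overlapped the next in its library values. A gap separated Tek from Vegfb (7.44 ± 1.62) and Vegfc (7.16 ± 2.10), a second one set these apart from Angpt1 (3.94 ± 0.260) and Pgf (3.66 ± 1.23), and Angpt2 was lowest at 0.465 ± 0.159. Vegfa stood above 93.0% of the tested genes in mean level, and Angpt2 above 1.44%. The latter is a place among genes kept by the filter, which Angpt2 passed through wounds only. It is no rank among all expressed genes. In WT 5dw the order changed. Angptl4 (65.7 ± 6.38), Vegfa (57.8 ± 7.94) and Angptl2 (50.0 ± 3.59) formed the top group with overlapping libraries. Angptl1 stood alone below them at 13.9 ± 0.443, and Tek had moved into a middle group with Pgf, Vegfb and Vegfc, at 5.93 to 7.80 on average. Act 5dw placed Angptl4, Vegfa, Angptl2, Angptl1 and Pgf in the same first ranks, with Angptl1 at 26.9 ± 7.86 (n = 2).

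**Figure D1:**
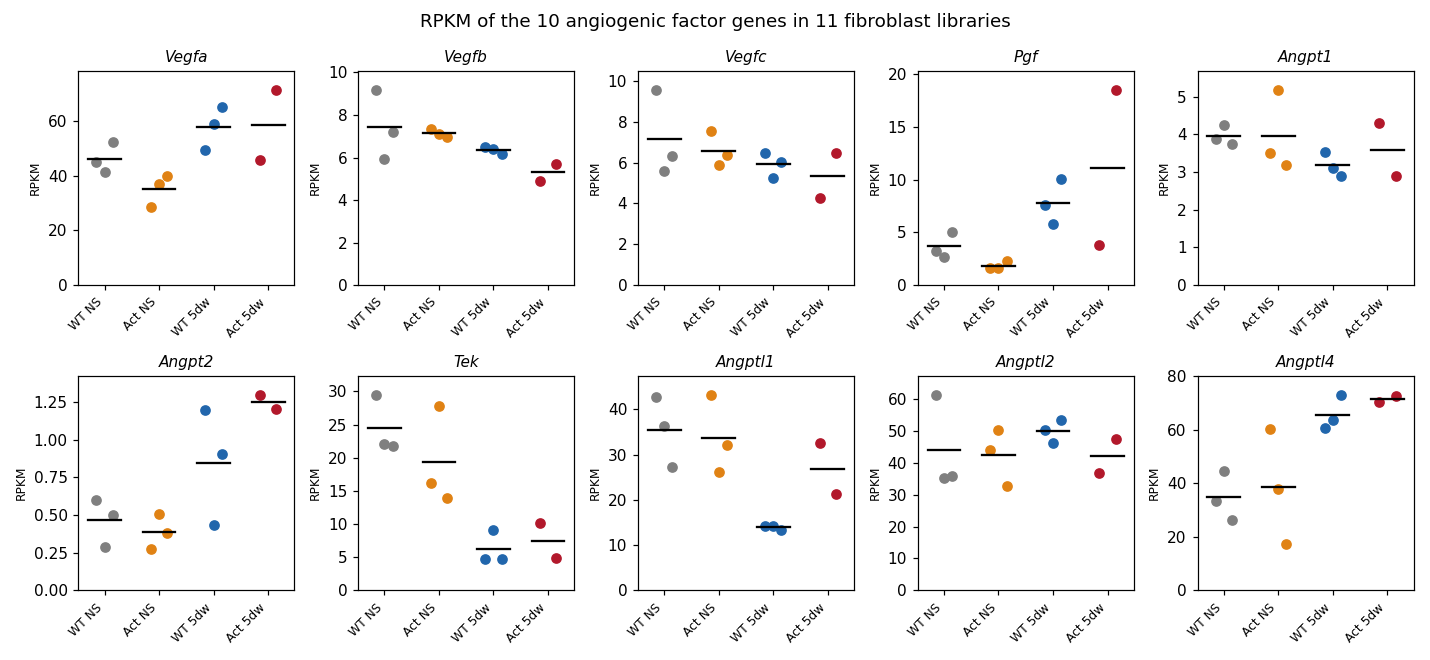
Each panel shows 1 gene, with RPKM on a linear axis from 0 and the 4 groups along the bottom. Points are libraries and bars are group means. Tek lay at 4.74 to 10.2 in all 5dw libraries and at 13.9 to 29.4 in all NS libraries, Angptl4 lay higher in 5dw, and the 2 Act 5dw libraries were far apart for Pgf.

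In WT wounds against WT normal skin, 1 of the 10 members was higher (Angptl4), 2 were lower (Tek and Angptl1) and 7 were not called. Of all tested genes, 58.3% were called in this comparison, 9.45% as higher and 48.8% as lower. Between Act 5dw and Act NS, 4 members were higher (Vegfa, Pgf, Angpt2 and Angptl4), 1 was lower (Tek) and 5 were not called. The 4 include Angpt2, which was tested only because of its level in wounds. In this comparison 45.6% of all genes were called, 9.04% as higher and 36.5% as lower. The median log2FC of the members was 0.02 in WT and -0.06 in Act, beside -0.40 and -0.31 over all tested genes. Most of the called genes were therefore lower on the RPKM scale. Median-ratio scaling brought the median of all genes to 0.01 in both genotypes and raised the share of higher calls among all calls from 16.2% to 52.4% in WT and from 19.8% to 49.8% in Act. With that scaling 5 members were higher and 2 lower in WT, where 23.4% of all genes were higher and 21.2% lower, and 4 were higher and 0 lower in Act, where the shares were 20.3% and 20.4%. Without the 2 NS libraries that lay apart, 2 were higher and 2 lower in WT, beside 9.53% and 50.3% of all genes, and 3 were higher and 2 lower in Act, beside 8.41% and 44.1%. In these bulk libraries fewer cells that express a gene and less RNA per cell cannot be told apart.

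Library values gave a similar split. Every WT 5dw library was above every WT NS library for 2 members, Pgf and Angptl4, and below for 3, Tek, Angptl1 and Angpt1; of all tested genes, 11.4% were above and 55% below in this way. In Act the wound libraries were above for 4 members and below for 2, Tek and Vegfb, against 14.4% and 49.8% of all genes. Over both genotypes together, Angptl4 was the member above in all 5 wound libraries and Tek the member below, beside 8.45% and 38.9% of all genes.

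**Figure D2:**
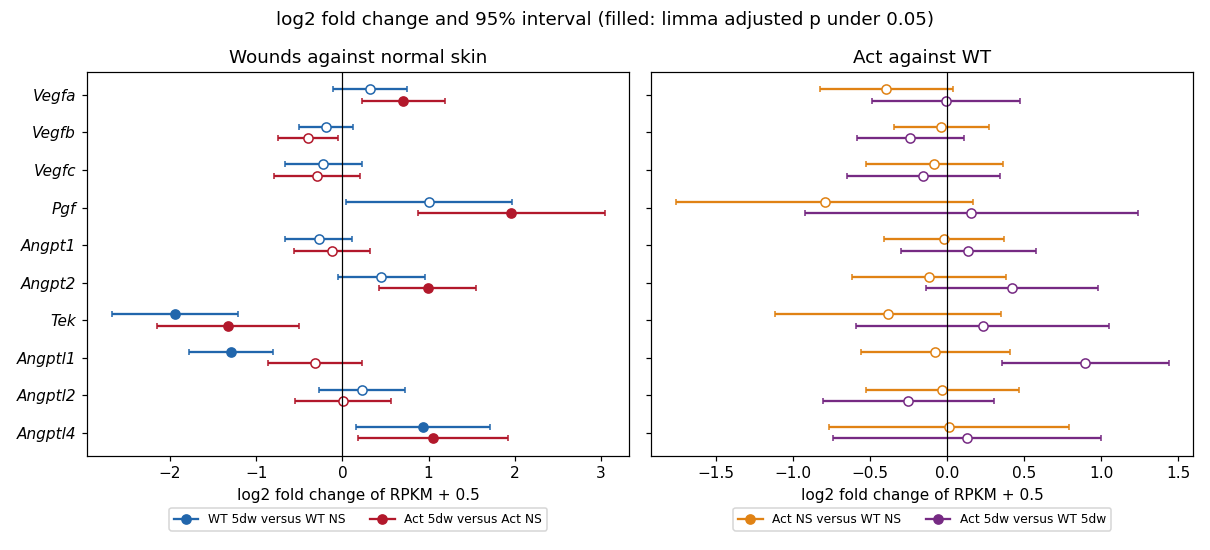
Points are log2 fold changes of RPKM + 0.5 for each member, with 95% confidence intervals from limma. The left panel compares 5dw with NS in each genotype and the right panel Act with WT in each tissue, and filled points have an adjusted p under 0.05. Filled points lie only in the left panel, with Tek to the left of 0 in both genotypes.

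Among the VEGF ligands, Vegfa (chromosome 17, 46016993 to 46032369, GRCm38) rose with wounding in Act mice. Its RPKM was 44.9, 41.2 and 52.4 in WT NS and 28.5, 37.1 and 39.9 in Act NS, and in wounds it was 49.4, 58.8 and 65.2 for WT and 45.6 and 71.3 for Act. Both Act wound libraries exceeded all Act NS libraries, while the WT groups overlapped. The log2FC in Act was 0.70 (SE 0.22, limma adjusted p = 0.0223), a rise of 1.63-fold, and in WT it was 0.32 (SE 0.20, limma adjusted p = 0.182). The Act call was lost without Act NS replicate 1 (adjusted p = 0.0545), without Act 5dw replicate 3 (log2FC 0.39, adjusted p = 0.248), with only the compared groups (adjusted p = 0.0671) and without both NS libraries that lay apart (adjusted p = 0.0616). Median-ratio scaling gave 0.79 (adjusted p = 0.00444) in WT and 1.07 (adjusted p = 0.00187) in Act, so whether WT fibroblasts were called for Vegfa depended on the scaling. The interaction, which is the difference between the responses of the genotypes, was 0.39 (SE 0.29, limma adjusted p = 0.999).

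Pgf (chromosome 12, 85166635 to 85177790) showed the widest spread of the ligands. It was at 3.26, 2.68 and 5.04 RPKM in WT NS and 1.58, 1.65 and 2.31 in Act NS, and in wounds it was 7.58, 5.76 and 10.1 for WT and 3.82 and 18.5 for Act. Wound libraries of each genotype lay above their own normal skin, but Act 5dw replicate 1 was below one of the WT NS libraries and the 2 Act 5dw libraries differed by 4.84-fold. The log2FC was 1.00 in WT (SE 0.44, limma adjusted p = 0.0693) and 1.96 in Act (SE 0.49, limma adjusted p = 0.00796). Without Act 5dw replicate 3 the Act value was 0.89 (adjusted p = 0.0777), and without replicate 1 it was 3.03. The WT value was called under 6 of the 21 alternatives: without Act 5dw replicate 1 or replicate 3 (1.00, adjusted p = 0.00647 in both), with the replicate block (1.00, adjusted p = 0.0133), with only the compared groups (adjusted p = 0.0106), and with median-ratio scaling (1.44, adjusted p = 0.0243) or quantile normalization (1.41, adjusted p = 0.0221).

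Vegfb (chromosome 19, 6982473 to 6987651) and Vegfc (chromosome 8, 54077606 to 54187096) were not called in either genotype. Vegfb lay at 5.95 to 9.16 RPKM in NS and 4.92 to 6.48 in 5dw, with a log2FC of -0.19 in WT (SE 0.14, limma adjusted p = 0.257) and -0.40 in Act (SE 0.16, limma adjusted p = 0.0612). Both Act 5dw libraries, at 4.92 and 5.71, were below the 6.97 to 7.34 of Act NS. The Act comparison of Vegfb passed the threshold without WT NS replicate 1 (adjusted p = 0.0243) or WT NS replicate 2 (adjusted p = 0.0258), without both NS libraries that lay apart (adjusted p = 0.0353) and with the replicate block (-0.44, adjusted p = 0.0479), and the WT comparison passed without WT NS replicate 2 (log2FC -0.33, adjusted p = 0.0429). Vegfc was at 5.59 to 9.55 RPKM in NS and 4.25 to 6.49 in 5dw, and the groups overlapped. Its log2FC was -0.22 in WT (SE 0.20, limma adjusted p = 0.361) and -0.29 in Act (SE 0.23, limma adjusted p = 0.309). With median-ratio scaling the WT values turned to 0.25 for Vegfb and 0.22 for Vegfc, and the Act value to 0.05 for Vegfc, so no direction can be given for Vegfb in WT or for Vegfc. The Act value of Vegfb stayed below 0 under each of the 21 alternatives, but was -0.05 with median-ratio scaling (adjusted p = 0.820). The log2 profiles of Vegfb and Vegfc over the 11 libraries were the most alike of any pair of members, with a root mean square difference of 0.130.

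Shares within a library do not depend on a scaling that multiplies all its genes by the same factor, as median-ratio scaling does. Quantile normalization is not of this kind. Vegfa made up 71.8% ± 4.01 (SD, n = 3) of the summed RPKM of Vegfa, Vegfb, Vegfc and Pgf in normal skin of WT mice and 69.0% ± 4.86 (n = 3) in that of Act mice. Its share in wounds was 74.1% ± 3.30 (WT, n = 3) and 73.9% ± 5.61 (Act, n = 2). These differences were within the spread between libraries. The share of Vegfb was 10.2 to 16.3% in the 6 NS libraries and 5.61 to 9.27% in the 5 wound libraries, without overlap. Pgf went the other way, from 3.20 to 7.10% in NS to 6.51 to 18.1% in 5dw, with a narrow overlap. Vegfd, a further lymphangiogenic ligand listed under its older symbol Figf, was above every ligand but Vegfa in all 11 libraries and above Vegfa in 2 of them, Act NS replicates 1 and 2. It lay at 20.8 to 49.8 RPKM, with group means of 29.8 to 33.9 and a log2FC of 0.15 in WT (limma adjusted p = 0.616) and 0.11 in Act (adjusted p = 0.776). When it was added to the sum, a choice made after its level was seen, the share of Vegfa was 36.5 to 54.0% in NS and 48.0 to 54.4% in 5dw, and that of Vegfb stayed lower in the wound libraries, at 4.25 to 6.30% against 6.50 to 9.84%.

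**Figure D3:**
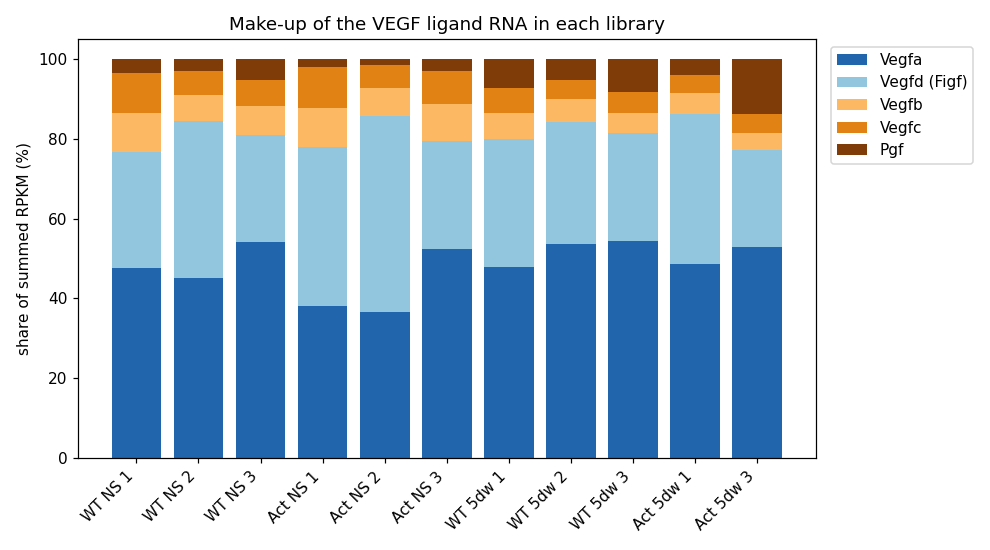
Stacked bars give the share of each VEGF ligand gene in the summed RPKM of the 5 ligands, in percent, for each of the 11 libraries named by group and replicate. Vegfa and Vegfd together take the larger part in every library, and the Pgf share is widest in Act 5dw replicate 3, at 13.7%.

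Tek (chromosome 4, 94739289 to 94874976) fell in wounds of both genotypes. The 3 WT NS libraries held 29.4, 22.1 and 21.8 RPKM, Act NS 16.2, 27.9 and 13.9, WT 5dw 4.74, 9.16 and 4.75, and Act 5dw 10.2 and 4.80. No wound library reached the lowest normal skin library. The log2FC was -1.94 in WT (SE 0.33, limma adjusted p = 0.00072), a 3.84-fold lower level, and it was called under each of the 21 alternative settings with a log2FC of -2.24 to -1.79 when single libraries were left out. In Act it was -1.33 (SE 0.37, limma adjusted p = 0.0140), and this call was lost with median-ratio scaling (-0.98, adjusted p = 0.0587), with quantile normalization (adjusted p = 0.0502) and without Act 5dw replicate 3 (-0.82, adjusted p = 0.169). The responses of the genotypes differed by 0.61 (SE 0.50, limma adjusted p = 0.999).

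TIE2 is known as a receptor of endothelial cells, so the level of Tek was set beside other genes of that cell type. Of the 10 endothelial markers, 7 (among them Emcn, Egfl7, Erg, Robo4, Sox17 and Vwf) were under 1 RPKM in every library, and none was at 0 in all libraries. Their sum was 6.14 to 8.66 RPKM in NS and 13.9 to 16.8 in 5dw, and most of it was Pecam1, which rose from 4.35 ± 0.860 to 12.2 ± 0.946 RPKM in WT (n = 3 each, log2FC 1.40, limma adjusted p = 0.00011). The sum thus moved opposite to Tek, but its markers did not all go one way. Cdh5, the other marker of the list that was tested, and through its level in wounds only, had a log2FC of 0.55 in WT (limma adjusted p = 0.0811) and 0.79 in Act (adjusted p = 0.0414). Egfl7 had a higher mean in WT wounds, at 0.504 ± 0.273 RPKM against 0.266 ± 0.194, and Cldn5, Erg and Vwf had lower ones. Cldn5 was at 0.678 ± 0.333 RPKM in WT NS and 0.236 ± 0.103 in WT 5dw, Erg at 0.325 ± 0.131 and 0.131 ± 0.0934, and Vwf at 0.212 ± 0.00945 and 0.0549 ± 0.0498. These 4 did not pass the filter and were not tested. Tie1, which encodes the second receptor of the TIE family, had group means of 0.184 to 0.362 RPKM, and the phosphatase gene Ptprb, whose product acts on TIE2, of 0.116 to 0.288. In NS the mean of Tek was 21.9 ± 6.15 RPKM (n = 6). The 8 pericyte markers summed to 15.8 to 24.9 RPKM in NS and 12.6 to 20.5 in 5dw, and single markers went both ways. Of the 7 tested, 1 was higher and 3 lower in WT, beside 9.45% and 48.8% of all genes. In Act 2 were higher and 2 lower, beside 9.04% and 36.5%. With median-ratio scaling 2 were higher and 1 lower in each genotype. The shares of all genes were then 23.4% and 21.2% in WT and 20.3% and 20.4% in Act. Cspg4 was at 3.76 to 7.23 RPKM in NS and 0.795 to 1.22 in 5dw, while Abcc9 had a log2FC of 0.63 in WT (limma adjusted p = 0.0254) and 1.31 in Act (adjusted p = 0.00143).

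**Figure D4:**
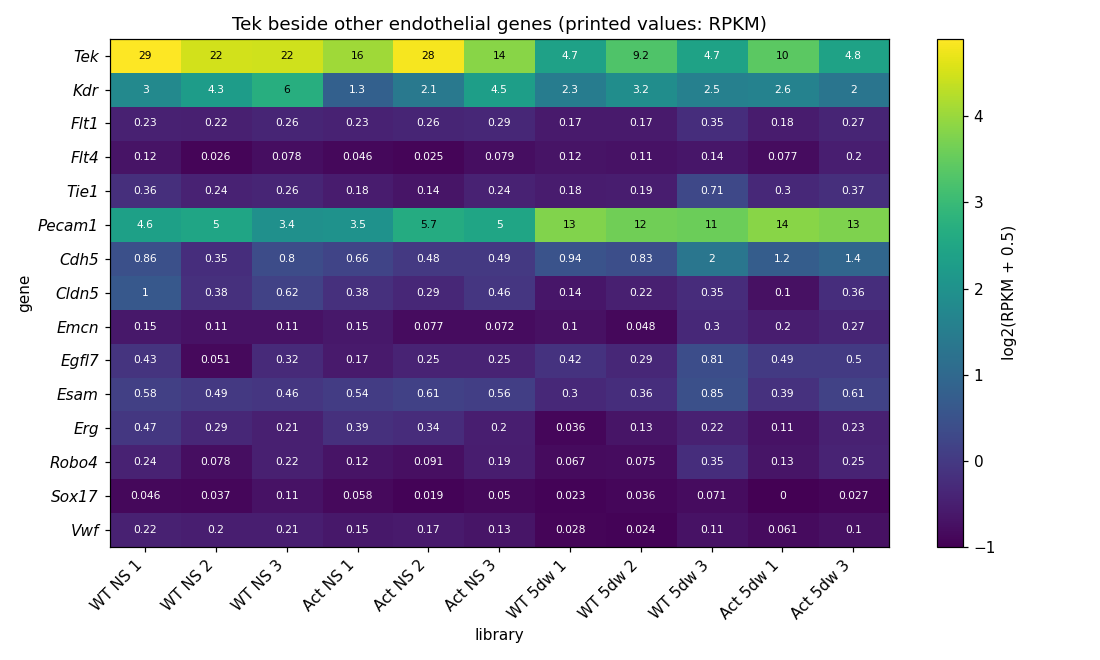
Rows are Tek, the VEGF receptor genes, Tie1 and the 10 endothelial markers, and columns are the 11 libraries. Colour gives log2(RPKM + 0.5) and each cell prints the RPKM. Tek is bright in the 6 NS columns, Pecam1 is brighter in the 5 wound columns, and most other endothelial genes are dark throughout.

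Of the TIE2 ligands, Angpt2 (chromosome 8, 18690263 to 18741562) was the lowest member and rose in Act wounds. It was at 0.602, 0.291 and 0.502 RPKM in WT NS and 0.272, 0.506 and 0.377 in Act NS, and in wounds it was 1.19, 0.434 and 0.908 for WT and 1.29 and 1.21 for Act. Both Act wound libraries were above every NS library, whereas WT 5dw replicate 2 lay within the NS range. These values rest on 20 to 175 reads. The exact Poisson 95% interval, which covers counting error only, was 0.178 to 0.449 RPKM for the shallowest value (WT NS replicate 2) and 0.994 to 1.45 for Act 5dw replicate 3. The log2FC was 0.99 in Act (SE 0.25, limma adjusted p = 0.00901) and 0.45 in WT (SE 0.23, limma adjusted p = 0.109). With no filter on low values the Act call held (adjusted p = 0.0204). The ratio of mean RPKM, without a pseudocount, was 3.24 in Act and 1.82 in WT. The Act call was lost without Act 5dw replicate 1 (0.95, adjusted p = 0.0558), and the WT comparison passed without WT 5dw replicate 2 (0.69, adjusted p = 0.0201), with median-ratio scaling (0.70, adjusted p = 0.0255) and with quantile normalization (0.97, adjusted p = 0.00418).

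Angpt1 (chromosome 15, 42424723 to 42676977) was not called in either genotype. Its RPKM was 3.87, 4.23 and 3.73 in WT NS and 3.52, 5.17 and 3.18 in Act NS, and in wounds it was 3.53, 3.10 and 2.90 for WT and 4.29 and 2.89 for Act. The WT groups were separated by a narrow margin and the Act groups overlapped. The log2FC was -0.28 in WT (SE 0.18, limma adjusted p = 0.202) and -0.12 in Act (SE 0.20, limma adjusted p = 0.649), and both turned positive with median-ratio scaling, at 0.14 and 0.21. The antisense gene Gm17473 shares 737 exon bases with Angpt1 and was listed at 0 to 0.114 RPKM, and the sources used here do not say whether reads were counted by strand. Within libraries, Angpt1 exceeded Angpt2 by 6.43 to 14.6 times in NS and by 2.40 to 7.15 times in 5dw. The ratio of Tek to Angpt1 went from 4.36 to 7.60 in NS to 1.34 to 2.96 in 5dw, with no overlap.

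Angptl1 (chromosome 1, 156838562 to 156861078), which encodes a secreted protein described as a brake on angiogenesis, fell in WT wounds. It was at 42.7, 36.4 and 27.2 RPKM in WT NS and 43.1, 26.1 and 32.1 in Act NS, and in wounds it was 14.2, 14.2 and 13.4 for WT and 32.5 and 21.4 for Act. The WT wound libraries lay close together and far below all others, while the Act wound libraries overlapped with Act NS. The log2FC was -1.29 in WT (SE 0.22, limma adjusted p = 0.00068), a 2.45-fold lower level that was called under each of the 21 alternative settings. In Act it was -0.32 (SE 0.25, limma adjusted p = 0.308), and 0.04 with median-ratio scaling. The antisense gene Gm37802 shares 465 exon bases with Angptl1 and was listed at 0 to 0.0369 RPKM.

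Angptl4 (chromosome 17, 33773750 to 33781830) was higher in the wounds of both genotypes. Its values were 33.6, 44.4 and 26.2 RPKM in WT NS and 60.1, 37.8 and 17.5 in Act NS, and in wounds it was 60.6, 63.6 and 72.8 for WT and 70.5 and 72.6 for Act. All 5 wound libraries were above all 6 normal skin libraries, by a margin that narrowed to that between 60.6 and 60.1, and the Act NS libraries spread over 3.44-fold. The log2FC was 0.94 in WT (SE 0.35, limma adjusted p = 0.0404) and 1.05 in Act (SE 0.40, limma adjusted p = 0.0490). Both lie close to the threshold, and the call held under 11 of 21 alternative settings in WT and 7 of 21 in Act. It was lost in WT without WT NS replicate 1 (adjusted p = 0.0800), WT NS replicate 3 (0.140), Act NS replicate 2 (0.0507), each WT 5dw replicate (0.0683, 0.0776 and 0.104) and either Act 5dw replicate (0.0548). In Act it was lost without any library except Act NS replicate 1, with adjusted p of 0.0514 to 0.167. The call was also lost with no filter (limma adjusted p = 0.0882 in WT and 0.105 in Act) and with quantile normalization (0.0547 and 0.0715). In Act, no trend (0.0507) and only the compared groups (0.112) ended it as well. Without Act NS replicate 3 the Act log2FC fell to 0.58 (adjusted p = 0.108). Leaving out both NS libraries that lay apart gave 0.93 (adjusted p = 0.0287) in WT and 1.46 (adjusted p = 0.00716) in Act.

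Angptl2 (chromosome 2, 33216069 to 33247717), linked to inflammation in adipose and skin tissue, was not called. It was at 61.2, 35.2 and 36.0 RPKM in WT NS and 44.0, 50.2 and 32.8 in Act NS, and in wounds it was 50.2, 46.3 and 53.4 for WT and 36.8 and 47.5 for Act, with overlap throughout. The log2FC was 0.22 in WT (SE 0.23, limma adjusted p = 0.411) and 0.00 in Act (SE 0.25, limma adjusted p = 0.994). The WT value passed with median-ratio scaling (0.70, adjusted p = 0.0377) and without both NS libraries that lay apart (0.48, adjusted p = 0.0490), and WT NS replicate 1 was the highest of all libraries. The ratio of Angptl4 to Angptl1 was 0.546 to 1.45 in NS and 2.17 to 5.43 in 5dw.

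No member was called between Act NS and WT NS by limma, and 0 of 10 had an unadjusted p under 0.05, where 0.0167% of all tested genes were called and 6.88% had such a p. Every Act NS library was below every WT NS library for 2 members, Vegfa and Pgf, against 7.98% of all tested genes. The log2FC was -0.40 for Vegfa (SE 0.20, 95% interval -0.83 to 0.04, limma adjusted p = 0.701) and -0.80 for Pgf (SE 0.44, 95% interval -1.76 to 0.17, limma adjusted p = 0.701). For the other 8 members it lay between -0.38 (Tek) and 0.01 (Angptl4).

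In wounds, no member was called between Act 5dw and WT 5dw by limma, where 0.0334% of all tested genes were called. An unadjusted p under 0.05 was found for 1 member, Angptl1, against 3.22% of all genes. Its log2FC was 0.90 (SE 0.25, 95% interval 0.35 to 1.44, limma adjusted p = 0.696), and both Act libraries were above all 3 WT libraries, with adjusted p of 0.349 to 1 over the alternative settings. The Act libraries were above for 2 members, Angptl1 and Angpt2, against 7.87% of all genes, and below for 1, Vegfb, against 15.2%. The log2FC was 0.42 for Angpt2 (SE 0.25) and -0.24 for Vegfb (SE 0.16), each with a limma adjusted p of 1. For Pgf it was 0.16 (SE 0.49), and it ran from -0.91 without Act 5dw replicate 3 to 1.23 without Act 5dw replicate 1.

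The test of whether the response to wounding differed between the genotypes called 0 members and 0% of all genes by limma. At an unadjusted p under 0.05 it found 1 member, Angptl1, and 3.34% of all genes. The interaction for Angptl1 was 0.97 (SE 0.33, 95% interval 0.25 to 1.70, limma adjusted p = 0.999), which was positive in every leave-one-out fit, at 0.68 to 1.27. The other members had interactions between -0.22 (Angptl2) and 0.95 (Pgf, SE 0.66). The calls made in Act and not in WT, for Vegfa, Pgf and Angpt2, therefore do not show that the genotypes differed.

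Genes of the VEGF receptors were weakly expressed in the sorted cells. Flt1 and Flt4 were under 1 RPKM in every library, with group means of 0.225 to 0.261 and 0.0501 to 0.140. Kdr was at 4.42 ± 1.54 RPKM in WT NS and 2.65 ± 0.478 in WT 5dw (log2FC -0.60, limma adjusted p = 0.142). The neuropilin co-receptor gene Nrp1 was more abundant, at 21.3 ± 3.48 and 17.7 ± 1.34 RPKM (log2FC -0.25, limma adjusted p = 0.165). Of the 3 tested receptor genes 0 were called by limma in either genotype, and 0 had an unadjusted p under 0.05. Between 5dw and NS, 58.3% of all tested genes were called in WT and 45.6% in Act. Among other family members, Angpt4 lay at group means of 3.38 to 4.70 RPKM and was not called. Angptl7 reached 1 RPKM in 3 NS libraries only and was at 0 to 0.187 in wounds, so it was tested through the group where it was high, and its call as lower held under 9 of 20 alternative settings in WT and 20 of 20 in Act.

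The partner and pathway genes of ANGPTL4 did not move as one. Lpl, the lipase that it inhibits, was at 89.2 ± 9.05 RPKM in WT NS and 51.9 ± 8.63 in WT 5dw, and fell with a log2FC of -0.78 in WT (limma adjusted p = 0.0159) and -0.77 in Act (limma adjusted p = 0.0365). Both calls of Lpl were lost with median-ratio scaling, at -0.31 (adjusted p = 0.304) and -0.40 (adjusted p = 0.245). Of 9 PPAR target genes, 1 was higher (Cpt1a) and 5 lower in WT, with a list median of -0.60. In Act 0 were higher and 5 lower. Of all genes 48.8% were lower in WT and 36.5% in Act. Cd36 is among the 9 and passed the filter through NS libraries only, at 0.175 to 0.926 RPKM in 5dw. It was thus tested through the group where it was high. With median-ratio scaling 2 were higher and 2 lower in WT, beside 23.4% and 21.2% of all genes, and 1 was higher and 3 lower in Act, beside 20.3% and 20.4%. Pdk4 was among the lower ones, with a log2FC of -1.70 in WT (limma adjusted p = 6.62e-06). Of 11 tested hypoxia-response genes 7 were higher and 2 lower in each genotype. Of all genes 9.45% were higher and 48.8% lower in WT, and 9.04% and 36.5% in Act. List medians were 0.87 in WT and 0.92 in Act beside the -0.40 and -0.31 of all genes. With median-ratio scaling 9 were higher and 1 lower in WT, beside 23.4% and 21.2% of all genes. In Act they were 9 and 2, beside 20.3% and 20.4%. Car9 is among the 11 and passed the filter through wound libraries only, at 0.172 to 0.396 RPKM in NS. Its test is therefore conditional on the group where it was high. Bnip3 (log2FC 1.25, limma adjusted p = 8.83e-05), Pgk1 (1.36, adjusted p = 0.000711) and Ndrg1 (1.34, adjusted p = 0.000211) rose in WT, while Adm, which encodes the vasodilator adrenomedullin, fell by 1.20 (adjusted p = 0.00592).

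Among genes of oxygen sensing, Hif1a and Epas1, which encode the oxygen-regulated subunits of the hypoxia-inducible factors, rose in WT with log2FC of 1.43 (SE 0.24, limma adjusted p = 0.000681) and 2.27 (SE 0.18, limma adjusted p = 5.37e-06). Their partner subunit gene Arnt fell by 0.53 on the log2 scale (limma adjusted p = 0.00237), and the hydroxylase genes Egln2 and Hif1an fell as well, while the hydroxylase genes Egln1 and Egln3 were not called in WT. Of the 8 genes of this list, 2 were higher and 4 lower in WT, beside 9.45% and 48.8% of all genes. With median-ratio scaling they were 2 and 1, beside 23.4% and 21.2%, and Arnt was at -0.07 (adjusted p = 0.546) and Egln2 at -0.29 (adjusted p = 0.179). Of the 8 secreted inhibitors of angiogenesis, 3 were higher and 2 lower in WT and 1 and 1 in Act. With median-ratio scaling 5 were higher and 1 lower in each genotype, against the same shares of all genes as above. Thbs1, which encodes thrombospondin-1, went from 255 ± 68.0 to 481 ± 41.8 RPKM (log2FC 0.95, limma adjusted p = 0.00572) and Thbs2 and Vash2 were also higher, whereas Col18a1, the source of endostatin, and Vash1 were lower. The WT calls of Thbs2 and Col18a1 were close to the threshold (limma adjusted p = 0.0410 and 0.0485) and held under 12 and 5 of 21 alternative settings.

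**Figure D5:**
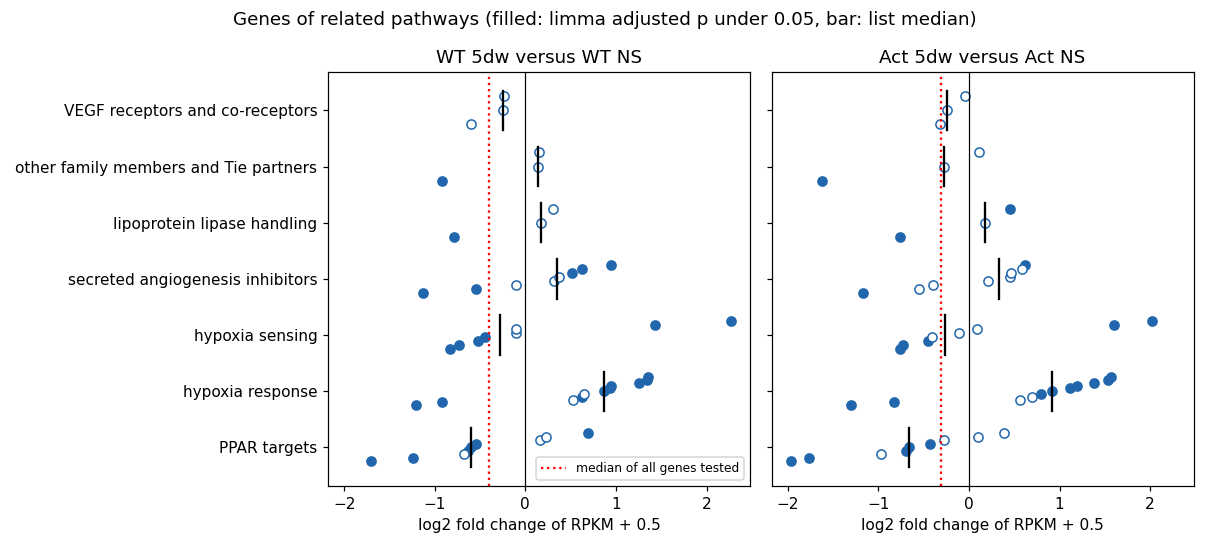
Points are the log2 fold changes of RPKM + 0.5 of single genes in 7 lists, for WT 5dw against WT NS (left) and Act 5dw against Act NS (right). Filled points have an adjusted p under 0.05, black bars are list medians, and the dotted line is the median of all tested genes, at -0.40 and -0.31. The hypoxia-response median lies to the right of the dotted line in both panels, and the PPAR target median to the left.

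Promoters were read for the members, since hypoxia-inducible factors and AP-1 have short, well-known target motifs. RefSeq windows of 300 bases (250 before and 50 after a start site, GRCm38.p6) were listed for 7 members, with 2 windows each for Vegfa and Pgf, and not for Angpt1, Angpt2 and Angptl4. The hypoxia response core (ACGTG or GCGTG on either strand) was found in 3 of these 9 windows, which belong to Vegfa, Vegfb and Pgf, and in 43.8% of the 32841 windows of all genes. The AP-1 element (TGANTCA on either strand) was found in 0 of 9 and in 7.81% of all. In Vegfa the core lay in the window that starts inside the gene and not in the first window. The 250 bases before the start site are shown for the first windows of Vegfa and Pgf, which rose in Act wounds, and for Tek and Angptl1, which fell in WT wounds, with matches to the core in capitals; the match in Pgf starts at position -124 from the start site. The windows are, in this order, chr17:46032378-46032627 (minus strand), chr12:85177314-85177563 (minus strand), chr4:94739039-94739288 (plus strand) and chr1:156838773-156839022 (plus strand).
Vegfa: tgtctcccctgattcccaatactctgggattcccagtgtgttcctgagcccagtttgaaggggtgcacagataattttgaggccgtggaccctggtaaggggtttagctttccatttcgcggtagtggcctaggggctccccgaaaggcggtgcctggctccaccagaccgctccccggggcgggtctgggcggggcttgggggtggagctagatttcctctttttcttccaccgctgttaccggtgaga
Pgf: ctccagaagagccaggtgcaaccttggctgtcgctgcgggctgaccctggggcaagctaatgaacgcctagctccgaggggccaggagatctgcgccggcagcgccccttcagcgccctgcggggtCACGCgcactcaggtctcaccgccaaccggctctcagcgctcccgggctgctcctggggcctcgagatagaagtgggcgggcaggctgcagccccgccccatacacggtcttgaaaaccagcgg
Tek: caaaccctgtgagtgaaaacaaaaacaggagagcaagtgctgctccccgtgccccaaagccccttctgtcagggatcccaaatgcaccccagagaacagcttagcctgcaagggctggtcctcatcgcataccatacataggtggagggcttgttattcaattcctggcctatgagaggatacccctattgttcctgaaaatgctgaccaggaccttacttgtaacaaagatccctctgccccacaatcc
Angptl1: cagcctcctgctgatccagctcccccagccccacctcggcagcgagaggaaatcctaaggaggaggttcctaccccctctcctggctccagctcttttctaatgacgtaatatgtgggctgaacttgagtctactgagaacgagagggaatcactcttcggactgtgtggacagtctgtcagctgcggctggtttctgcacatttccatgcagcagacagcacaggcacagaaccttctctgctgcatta
Of these 4 stretches, that of Pgf holds a match. A match describes the letters and shows no binding.

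Genes outside the families were ranked by how alike their library profiles were to those of members. The measure was the root mean square difference of log2(RPKM + 0.5) over the 11 libraries after each profile was centred on its own mean. For Tek the closest 3 of the tested genes were Npr1 (0.160), Dpp4 (0.166) and Mturn (0.190), against a median of 0.806 over all tested genes. Npr1, a natriuretic peptide receptor gene, was at 11.8 to 24.5 RPKM in NS and 4.03 to 7.38 in 5dw, and Dpp4, whose product CD26 marks a subset of skin fibroblasts, at 44.3 to 91.0 and 14.2 to 35.6. For Vegfa they were Vasp (0.150), Xpnpep1 (0.154) and Pfn1 (0.156), where the median was 0.534, and Vasp and Pfn1 encode proteins that promote actin assembly. Zfhx4 (0.0936), Prkg1 and Ppp4r1l-ps were closest to Angpt1 (median 0.346). Rnf144a was closest to Angptl4, at 0.288 (median 0.841).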

How the data were processed

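RNA of sorted fibroblasts from 3 mice per library was read as stranded 100 bp reads after poly-A enrichment. Working in CLC Genomics Workbench, the authors aligned these reads to the GRCm38 build, counted per gene, and deposited RPKM values for 47643 symbols in 11 libraries; they used edgeR for their own tests, which takes counts and was not run here. No 2 libraries held identical values, and the highest Spearman correlation between any of them was 0.9853. The mapped total of each library was recovered from the RPKM values and GENCODE M21 exon lengths.

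Groups followed the labels. The 11979 genes that reached an RPKM of 1 in 2 or more libraries were fitted as log2(RPKM + 0.5) with limma 3.58.1 in R 4.3.3 (limma-trend, 1 mean per group over all 11 libraries, 7 residual degrees of freedom, median prior 3.89), and the Benjamini-Hochberg adjustment ran over all tested genes. The procedure was tested on simulated data, for which no outcome is given here. The 10 members, the gene lists and the tests were chosen with earlier results of these data known. Every member is named whatever its values, list genes are given as examples, and the genes of like pattern are the 3 closest to Vegfa, Angpt1, Angptl4 and Tek. Alternatives were a pseudocount of 0.1 or 1, no filter (26465 genes), a filter of 5 RPKM (6596 genes, which drops Angpt1 and Angpt2), median-ratio scaling, quantile normalization, no trend, a replicate block, only the compared groups, and leaving out each library. After the values were seen, leaving out 2 NS libraries together, adding Vegfd to the ligand sum and leaving Cd3e out of the immune sum were added. Deviations of same-numbered libraries from their group means correlated over 0.1 in 12 of 15 pairs, and the remaining pairs all involved Act 5dw. The labels state no shared step, so numbers were not taken to pair the samples in the main model. The replicate block is given as an alternative. Protein sequences were not used here.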

Additional observations from a re-analysis of the deposited data

How the results depend on the processing

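Under the alternatives no called member changed direction. For WT 5dw against WT NS, 1 member was higher in the main setting, and the count was 0 with no filter, 5 with median-ratio scaling, 3 with quantile normalization, 2 with the replicate block, 2 with only the compared groups, 2 without the 2 NS libraries numbered 1, and 0 to 1 when single libraries were left out. Of all genes 9.45% were higher in the main setting, and in the same order of alternatives 5.67%, 23.4%, 20.4%, 10.2%, 9.68% and 9.53%, so the counts under both scalings rose together with those of all genes. The count of lower members was 2, and 2 to 3 when single libraries were left out. For Act 5dw against Act NS, 4 were higher, 2 with only the compared groups, 3 with no filter, a filter of 5 RPKM, quantile normalization, no trend or without the 2 NS libraries numbered 1, and 1 to 3 when single libraries were left out. There 1 was lower, 0 with median-ratio scaling, 0 with quantile normalization, 2 with the replicate block, 2 without the 2 NS libraries numbered 1, and 0 to 2 when single libraries were left out. All genes higher in Act were 9.04% in the main setting, 7.40% with only the compared groups and 5.31% with no filter. They were 20.3% with median-ratio scaling, where 4 members were higher, and 20.1% with quantile normalization, where 3 were. Under both scalings the Act member counts thus did not rise with those of all genes. All genes lower in Act were 36.5% in the main setting, 20.4% with median-ratio scaling and 17.2% with quantile normalization. They were 38.0% with the replicate block and 44.1% without the 2 NS libraries. Between genotypes, and for the interaction, all counts were 0 under every alternative. Of single log2FC values, 918 kept their direction and side of the threshold, 33 lost the call, 18 gained one, and 61 changed sign without being called in either setting. Of the within-library ratios, 60 stayed within 1 SD and 19 moved, 15 of these by adding Vegfd. Same-numbered libraries correlated at -0.124 to 0.554 in their deviations from the group means, over 0.1 in 12 of 15 pairs, and 9 of 11 libraries were closest to one with their own number. This hints at a shared step that the labels do not state, so the block is given as an alternative only. The limits are the 2 libraries of Act 5dw, the pooled mice, and, for Angpt2, depth.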
